A study of Mus musculus with 35 samples.

Results

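Zscan4, which the array lists under the older name Gm397, Zfp352 and the Tcstv genes are transcribed in the 2-cell mouse embryo. All probes named Gm397 or Zfp352 were taken, together with any probe whose gene name starts with Zscan4 or Tcstv. They were 9 of the 41174 gene probes and belonged to 4 genes: Gm397 (2 probes), Zfp352 (2), Tcstv1 (3) and Tcstv3 (2). No probe carried a name that starts with Zscan4. All 9 were among the 27623 probes that could be tested, and of each gene the brightest probe over clones and ES cells gave the values below.

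RNA was hybridized in 1 colour to 35 Agilent mouse arrays: 30 iPS clones in 6 groups of 5, 2 ES cell lines (EB-3 and RF8), and 1 array each of PαS, OP and TTF source cells. PαS cells are bone marrow mesenchymal stem cells sorted as CD45- Ter119- PDGFRα+ Sca-1+, OP cells are osteo-progenitors of the same marrow that lack both latter markers, and TTF are tail tip fibroblasts, all from 6-week-old mice that carry a Nanog-GFP-Puro r transgene. The 4F-clones received retroviral Oct3/4, Sox2, Klf4 and c-Myc, and the 3F-clones Oct3/4, Sox2 and Klf4. All clones also received a DsRed control virus, were picked as Nanog-GFP+ DsRed- colonies under puromycin, and were grown on SNL feeder cells, a fibroblast line, so that each array is 1 clone chosen on a Nanog reporter. Whether any clones of a group are sister colonies is not given, and p-values measure the spread between the picked clones.

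In the embryo these genes belong to the first wave of transcription from the zygotic genome. In ES cell cultures a few cells at a time switch on the same set, and Zscan4, a SCAN domain and zinc finger protein, is known for its part in telomere maintenance there. Zfp352 encodes a zinc finger protein of the same stage, and the Tcstv genes form a small family of 2-cell transcripts. In bulk RNA, fewer cells in this state and less transcript in each such cell cannot be told apart.

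The probe sequences show what the array could tell apart. The Gm397 probe lay on chromosome 7 (9713271 to 9713330, plus strand, mouse build mm7) and the Zfp352 probe on chromosome 4 (89617872 to 89617931, plus strand). The first 30 of their 60 bases are given here to identify them.
Gm397: tcttgacagaagcctggcattccctctgac
Zfp352: accactgcaacctgactgtccacaaacaat
RefSeq (GRCm38.p6) names the transcript of the Gm397 probe Zscan4c and lists 9 Zscan4 genes and pseudogenes on chromosome 7, of which 4 are protein-coding (Zscan4b, Zscan4c, Zscan4d and Zscan4f). A Gm397 value may therefore hold transcripts of several copies, and whether the probe tells them apart was not tested.

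The Tcstv1 and Tcstv3 probes lay on unplaced sequence of mm7, at 918057 to 918116 and 304775 to 304834 on the minus strand. The last 25 bases of the Tcstv3 probe and the first 25 of a second Tcstv1 probe are the same stretch but for 1 base (capitals), T14A counted from the 5′ end of the stretch with the Tcstv3 base first.
Tcstv3: gtcttgccagcccTgagtacaaggt
Tcstv1: gtcttgccagcccAgagtacaaggt
This second Tcstv1 probe also shared 40 bases with the third one without a difference. The brightest Tcstv1 probe, which gave the Tcstv1 values, had no such overlap with the Tcstv3 probe.

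Since the 4 genes moved together, the promoters of Zfp352 and 4 Zscan4 copies were compared over the 250 bases before the start given by RefSeq (GRCm38.p6). The promoters of Tcstv1 and Tcstv3 were not analysed here. Both motifs were chosen after the sequences were seen, were searched on both strands and did not overlap in these promoters. Zfp352 (chr4:90218570-90218819, plus strand) is shown with TAATCC, a homeodomain core, in capitals, and Zscan4c (chr7:11005495-11005744, plus strand) with GATNNAATC in capitals.
Zfp352: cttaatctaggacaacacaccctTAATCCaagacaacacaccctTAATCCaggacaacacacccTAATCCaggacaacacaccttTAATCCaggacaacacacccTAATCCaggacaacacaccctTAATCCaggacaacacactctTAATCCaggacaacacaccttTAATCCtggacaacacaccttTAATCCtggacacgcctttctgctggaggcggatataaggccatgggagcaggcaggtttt
Zscan4c: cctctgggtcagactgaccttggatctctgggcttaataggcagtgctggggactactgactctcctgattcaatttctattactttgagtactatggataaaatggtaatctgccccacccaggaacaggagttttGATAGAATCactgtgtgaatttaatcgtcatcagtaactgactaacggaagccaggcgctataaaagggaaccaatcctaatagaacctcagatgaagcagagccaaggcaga
TAATCC stood 9 times in the Zfp352 promoter, within a short tandem repeat, and 0 times in the 4 Zscan4 promoters. Of all promoters, 6.25% of 32851 promoters held it at least once and no other held it 9 times. GATNNAATC stood once in each of the 4 Zscan4 promoters and not in that of Zfp352, and in 1.39% of all promoters. The Zscan4 promoters were near copies of each other: Zscan4c and Zscan4f had 226 identical of 227 aligned bases, and the lowest identity among the 4 was 94.7%. No stretch longer than 87 bases of the Zfp352 promoter could be aligned with any of them. A match of letters is a description and not a binding site.

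The clones were scanned in 1 session on 8 slides, the EB-3 and source arrays in a second session on 1 slide, and RF8 in another session on another slide, so that clones and ES cells cannot be told apart from sessions. On no slide did the 4F- and 3F-clones of 1 source meet. Between 56.6% and 71.1% of probes were well above background on an array. Of 7 pluripotency genes found on the array, all were well above background in both ES arrays and in 27 clones. The clones 4F-OP-iPS #1, #2 and #3 and 4F-TTF-iPS #1 stood apart, with Sox2 and Nanog both at least 32-fold below the ES mean. In 3 of these 4 (all but 4F-OP-iPS #2) neither gene was well above background. The 3F-4F differences and the relations are therefore also given without these clones. Of 18 fibroblast markers, 17 or 18 were well above background in every clone, with a mean log2 level of 0.06 to 3.52 against -4.51 in EB-3, 0.67 in RF8 and 3.65 to 4.71 in the source cells. The 4 low clones were also the 4 lowest of the 30 in this mean, at 0.06 to 0.59 against 0.64 to 3.52 in the other 26. Of 6 haematopoietic markers, 1 to 4 were above background in a clone.

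Gm397 was measured above background in 29 of 30 clones and in both ES lines. Levels are log2 intensities with the 75th percentile of each array set to 0. In 4F-PαS-iPS clones #1 to #5 the Gm397 levels were -0.75, 0.76, 0.95, 0.50 and 1.99, and in 3F-PαS-iPS clones 1.34, 1.08, 0.62, 0.51 and 0.89. All 10 PαS-derived clones thus lay within a range of 2.73, and the 3F-PαS-iPS clones within 0.83.

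In 4F-OP-iPS clones #1 to #5 the Gm397 levels were -4.39, -3.56, -4.83, 2.00 and 1.30, and in 3F-OP-iPS clones -1.47, 3.73, 0.87, 3.45 and 3.99. The 4F-OP-iPS clones fell apart into 3 low and 2 high ones, and 3 of the 3F-OP-iPS clones exceeded every 4F-OP-iPS clone. These 3, #2, #4 and #5, had the highest fibroblast marker means of the 30 clones (3.52, 2.72 and 3.14), and the part of such RNA in their values was not tested. In 4F-TTF-iPS clones the levels were -5.30 (not well above background), -2.05, 1.73, -0.99 and 0.66, and in 3F-TTF-iPS clones 0.27, 2.41, 2.90, 3.77 and 2.50. Of the 3F-TTF-iPS clones 4 exceeded every 4F-TTF-iPS clone, while #1 lay among them.

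By group mean, Gm397 was ordered 3F-TTF-iPS (2.37 ± 1.29, SD, n = 5), 3F-OP-iPS (2.11 ± 2.36), 3F-PαS-iPS (0.89 ± 0.34), 4F-PαS-iPS (0.69 ± 0.98), 4F-TTF-iPS (-1.19 ± 2.72) and 4F-OP-iPS (-1.89 ± 3.28). No neighbours in this order differed by more than the larger of their SDs. The ES lines were at 2.18 (EB-3) and 0.03 (RF8), which places 15 clones between them, 7 above both and 8 below both.

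Zfp352 was dimmer, above background in 27 of 30 clones. Its levels in 4F-PαS-iPS clones #1 to #5 were -4.97, -2.69, -3.08, -4.38 and -2.52, and in 3F-PαS-iPS clones -2.92, -2.91, -2.91, -3.12 and -3.11. The 3F-PαS-iPS clones lay within 0.21 of each other, the narrowest of the 6 groups, against a range of 2.44 in the 4F-PαS-iPS clones.

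In 4F-OP-iPS clones the Zfp352 levels were -6.64, -5.13, -6.10, -1.71 and -3.20, with #1 and #3 not well above background, and in 3F-OP-iPS clones -4.16, -1.46, -2.24, -2.05 and -1.54. In 4F-TTF-iPS clones they were -7.00 (not well above background), -4.40, -3.17, -4.18 and -2.87, and in 3F-TTF-iPS clones -3.97, -2.43, -2.39, -1.36 and -2.16. As for Gm397, the 3 low 4F-OP-iPS clones and 4F-TTF-iPS #1 were at the bottom, and 4 of 5 3F-TTF-iPS clones exceeded every 4F-TTF-iPS clone. EB-3 was at -4.03 and RF8 at -4.80, below 21 of the 30 clones.

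Tcstv1 and Tcstv3 were above background in all clones. Tcstv1 ranged from -4.69 to 2.65 in 4F-clones (median 0.13) and from -0.06 to 3.55 in 3F-clones (median 2.13), and Tcstv3 from -4.57 to 2.11 (median -0.29) and from -0.63 to 2.99 (median 1.55). For each of the 4 genes, the 4 clones low in Sox2 and Nanog were the 4 lowest of the 30. The gap to the next clone was small for Zfp352 (-5.13 against -4.97) and larger for Gm397 (-3.56 against -2.05).

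**Figure D1:**
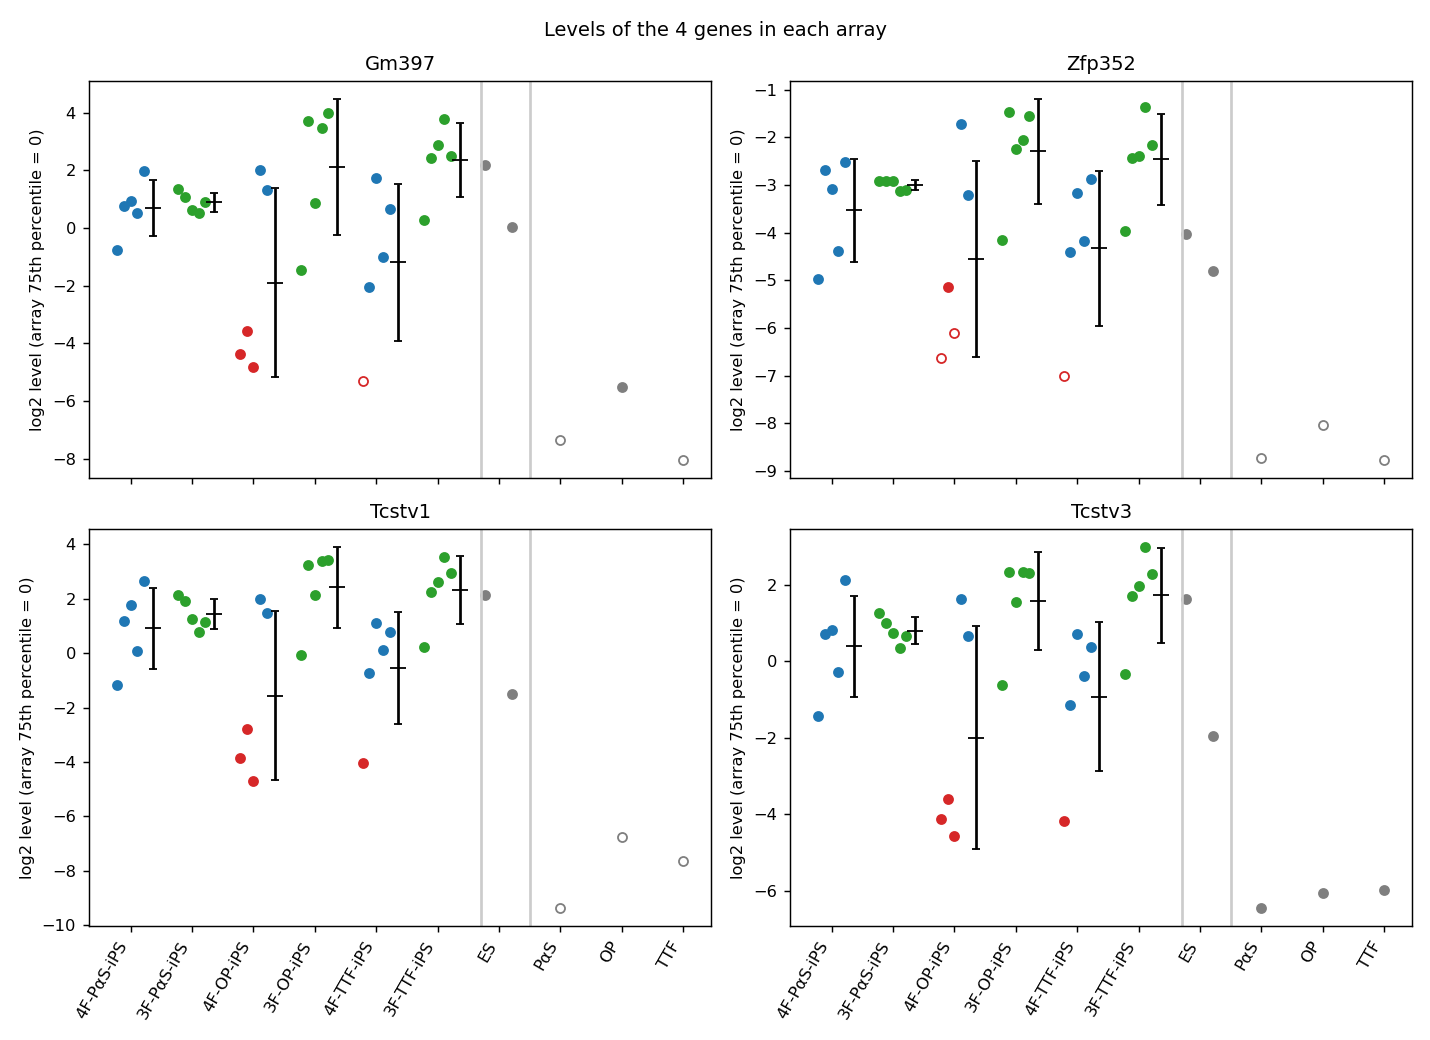
Log2 level of Gm397, Zfp352, Tcstv1 and Tcstv3 (brightest probe) in each array, by group; blue points are 4F-clones, green 3F-clones, red the 4 clones in which Sox2 and Nanog lay at least 32-fold below the ES mean, grey ES and source arrays, open symbols values not well above background, and black bars the mean ± SD of 5 clones. The 3F-PαS-iPS clones are close together, the red points lie lowest among the clones in all panels, and the 3F-OP- and 3F-TTF-iPS clones have the highest means.

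The first comparison asked whether clones made without c-Myc differed from those made with it. Averaged over the 3 sources, all 4 genes were higher in 3F-clones: Gm397 by 2.59 ± 0.73 on the log2 scale (SE, adjusted p = 0.0120), Zfp352 by 1.55 ± 0.45 (adjusted p = 0.0144), Tcstv1 by 2.46 ± 0.65 (adjusted p = 0.00855) and Tcstv3 by 2.21 ± 0.61 (adjusted p = 0.0106). A probe is called here at an adjusted p under 0.05 in limma's test and at least a 2-fold difference. Called were 8 of the 9 probes, all higher in 3F-clones, against 5.34% of all tested probes, and the exception was the dimmer Zfp352 probe (1.30, adjusted p = 0.0941). With the slide as a random block, at an estimated correlation of 0.329, 0 of the 9 were called (Gm397 adjusted p = 0.212, Zfp352 adjusted p = 0.206), against 1.43% of all tested probes. The median over the 9 probes was 2.21, and over all tested probes 0.03.

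The estimates differed between sources, though none of the 9 probes passed the test between sources given below. Between PαS-derived clones Gm397 differed by 0.20 ± 1.26 (adjusted p = 0.953) and Zfp352 by 0.53 ± 0.78 (adjusted p = 0.763). None of the 9 probes was called there, and 0 had an unadjusted p under 0.05, against 0.0181% of all tested probes called. Between OP-derived clones 6 of 9 probes were called, against 4.51% of all. A random block for the slide left 0 of the 9 called (adjusted p = 0.103 to 0.159), against 0.608% of all. Gm397 was higher by 4.01 ± 1.26 (adjusted p = 0.0469), Tcstv1 by 4.00 ± 1.13 (adjusted p = 0.0296) and Tcstv3 by 3.57 ± 1.05 (adjusted p = 0.0351), whereas the Zfp352 difference of 2.27 ± 0.78 missed the threshold (adjusted p = 0.0670). Of 32 fits that each left out 1 array, 11 called the Gm397 difference.

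Between TTF-derived clones Gm397 differed by 3.56 ± 1.26 (adjusted p = 0.0682) and Zfp352 by 1.87 ± 0.78 (adjusted p = 0.122). No probe was called, against 5.77% of all tested probes, although 8 of 9 had an unadjusted p under 0.05. With the slide as a fixed block the TTF difference was negative for all 9 probes, from -3.35 to -1.15 (Gm397 -1.72). This estimate rests on 4F-TTF-iPS #5 and 3F-TTF-iPS #1 alone. No other TTF-derived clone shared a slide with another group, so it does not describe the groups. In none of the 12 combinations of gene and source were the 3F- and 4F-clones fully separate. The test of the difference between sources was not passed by any of the 9 probes. For Gm397 the 3F-4F difference was larger in OP than in PαS by 3.81 ± 1.78 (adjusted p = 0.243; 0.648% of all tested probes called), and larger in TTF than in PαS by 3.36 ± 1.78 (adjusted p = 0.299; 0.583% called). TTF and OP differed by -0.45 ± 1.78 (adjusted p = 1.00; 0% called). The 9 probes had an unadjusted p under 0.05 in 5, 0 and 0 cases.

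Much of the difference lay in the 4 clones low in Sox2 and Nanog, all of which are 4F-clones. Without them the mean over sources was 1.06 ± 0.57 for Gm397 (adjusted p = 0.209) and 0.63 ± 0.35 for Zfp352 (adjusted p = 0.221), and 0 of the 9 probes were called, against 3.48% of all. In OP-derived clones the Gm397 difference went from 4.01 to 0.46 ± 1.15 (adjusted p = 0.925). In TTF-derived clones it was 2.53, and 0 of the 9 probes were called there (adjusted p = 0.0586 to 0.494), beside 4.96% of all tested probes. The slide also moved with the factors, since no slide held both kinds of clone of a source. With the slide as a random block the mean over sources was 2.39 ± 1.09 for Gm397 and 1.44 ± 0.65 for Zfp352. The part of the slide in the result was not tested further.

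**Figure D2:**
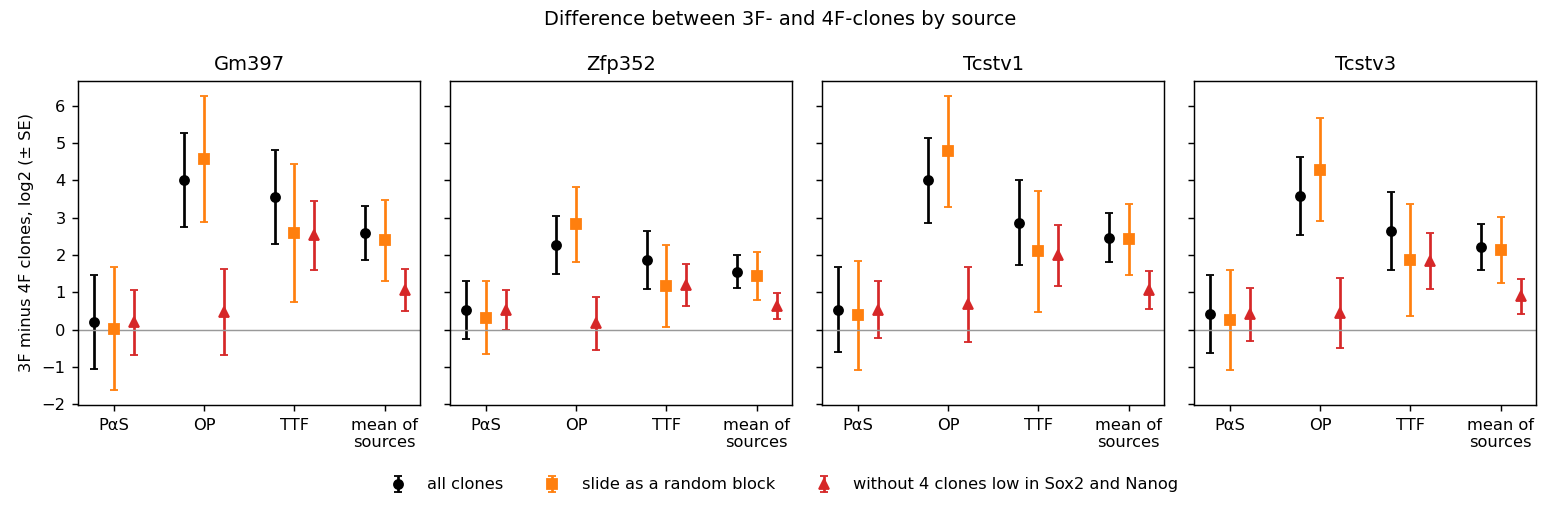
Difference between 3F- and 4F-clones on the log2 scale (± SE) for the 4 genes, within each source and averaged over sources, with all clones (black), with the slide as a random block (orange) and without the 4 clones low in Sox2 and Nanog (red). For OP the red points are close to 0 (0.46 for Gm397), for TTF they remain between 1.20 and 2.53, and for PαS Gm397 is at 0.20 with all clones.

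The pluripotency genes were set beside these values. Sox2 differed between 3F- and 4F-clones by 1.75 ± 0.89 (adjusted p = 0.164) and Nanog by 2.05 ± 0.86 (adjusted p = 0.0877) over the 3 sources, and Pou5f1, which encodes Oct3/4, by -0.02 ± 0.44 (adjusted p = 0.983). Of their list, 7 genes were found and tested, and they had a median difference of 1.74 over the sources, and of -1.05 in PαS-, 3.76 in OP- and 1.65 in TTF-derived clones. Over the sources 1 of the 7 was called, beside 5.34% of all tested probes: Dppa5, a gene of undifferentiated ES cells, was higher by 1.74 ± 0.62 (adjusted p = 0.0458). Without the 4 low clones the list's median was -0.44, Dppa5 differed by 0.15 ± 0.18 and 0 were called. None of the 7 was called with the slide as a random block either (Dppa5 1.61, adjusted p = 0.325). Of 18 fibroblast markers, whose median difference was 0.90, 3 were called higher in 3F-clones, beside 5.34% of all tested probes, and of these Acta2, a smooth muscle actin, differed most (2.05 ± 0.47, adjusted p = 0.00325). Without the 4 low clones their median was 0.54 and 0 were called, as with the slide as a random block (Acta2 adjusted p = 0.0978). The part of feeder or fibroblast RNA in the results of the 4 genes was not tested. None of them but Tcstv3 was well above background in all 3 source arrays. No array held SNL feeder cells alone, so the source values do not measure feeder RNA.

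Clones of different sources were compared over both factor sets. None of the 9 probes was called in any pair of sources, against 1.6% (PαS minus OP), 0.5% (PαS minus TTF) and 0.0217% (OP minus TTF) of all tested probes, and none had an unadjusted p under 0.05. The Gm397 differences were 0.68 ± 0.89, 0.20 ± 0.89 and -0.48 ± 0.89, and those of Zfp352 0.16 ± 0.55, 0.13 ± 0.55 and -0.03 ± 0.55. The sign of the PαS minus OP difference of Gm397 turned to -1.09 without the 4 low clones. Within slides, 4F-PαS-iPS clones exceeded 4F-OP-iPS clones in Gm397 by 1.26 and 5.44. Low clones were 1 of the 3 4F-OP-iPS clones on the first of these slides and both on the second. Without them the first difference was -0.90 (1 against 2 clones) and the second slide gave none. The 3F-PαS-iPS clones were below 3F-OP-iPS clones by -0.43 on another slide that held both sources. On a further slide 3F-OP-iPS clones exceeded the 3F-TTF-iPS clone by 2.50 in Gm397 and 2.03 in Zfp352 (3 against 1 clone). The slide that held PαS- and TTF-derived clones set 3F against 4F (0.35 in Gm397 and -0.04 in Zfp352, 3 against 1 clone).

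Against ES cells the direction differed between genes, but none of the 9 probes was called, against 36.2% of all tested probes, and none had an unadjusted p under 0.05. Over the 30 clones Gm397 differed from the 2 ES lines by -0.61 ± 1.45 (adjusted p = 0.741), Zfp352 by 1.05 ± 0.90 (adjusted p = 0.333), Tcstv1 by 0.52 ± 1.31 (adjusted p = 0.757) and Tcstv3 by 0.43 ± 1.22 (adjusted p = 0.783). The ES lines themselves lay 2.15 apart in Gm397, 0.77 in Zfp352, 3.65 in Tcstv1 and 3.58 in Tcstv3, always with EB-3 higher. Without the 4 low clones, the lowest of the 30 in Zfp352, the Zfp352 difference was 1.52 ± 0.62 and passed the threshold (adjusted p = 0.0419). In that setting 2 of the 9 probes were called, beside 36.7% of all tested probes. Probes of the same name disagreed in ES cells: the second Tcstv3 probe differed by -0.26 between EB-3 and RF8. Its r with the first was 0.987 over the 30 clones.

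Source cells had little or no signal of these genes. Gm397 was well above background only in OP cells (-5.52), and Zfp352 and Tcstv1 in no source array, while Tcstv3 was at -6.44, -6.05 and -5.98 in PαS, OP and TTF. Relative to the source array, Gm397 was on average at least 248-fold higher in the 10 PαS-derived clones, 49.7-fold higher in the OP-derived and at least 148-fold higher in the TTF-derived ones. Without the 4 low clones, the OP value was 182-fold (7 clones) and the TTF bound 233-fold (9 clones). For Zfp352 the bounds over all clones were 8.32-fold in OP- and 9.35-fold in TTF-derived clones, and without the 4 low clones 17.7-fold in OP and 12.3-fold in TTF. Bounds are set by the lowest signal well above background on the source array, which 9 of 10 clones of either source exceeded in Zfp352. Sources had 1 array each, scanned in another session, and no test was made.

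The 4 genes varied more between clones than most on the array. Within groups of clones the SD of Gm397 was 2.10, against a median of 0.42 over all tested probes, and 99.6% of probes varied less. The SD was 1.30 for Zfp352 (95.8% of probes varied less), 1.84 for Tcstv1 (99.1%) and 1.70 for Tcstv3 (98.6%). Without the 4 low clones these SDs were 1.45 for Gm397 (98.5% of probes varied less), 0.89 for Zfp352 (90.7%), 1.17 for Tcstv1 (96.4%) and 1.07 for Tcstv3 (94.8%), against a median of 0.38. Clones of the 4F groups deviated from their group median by a mean of 1.70 in Gm397 and clones of the 3F groups by 0.91 (permutation test over 30 clones, two-sided, p = 0.193). For Zfp352 these deviations were 1.15 and 0.45 (permutation p = 0.0315), for Tcstv1 1.61 and 0.73 (permutation p = 0.0739) and for Tcstv3 1.46 and 0.60 (permutation p = 0.0842). The Zfp352 difference in spread of 0.71 was 0.30 without the 4 low clones (permutation p = 0.220), and within slides 0.54 (permutation p = 0.0502).

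**Figure D3:**
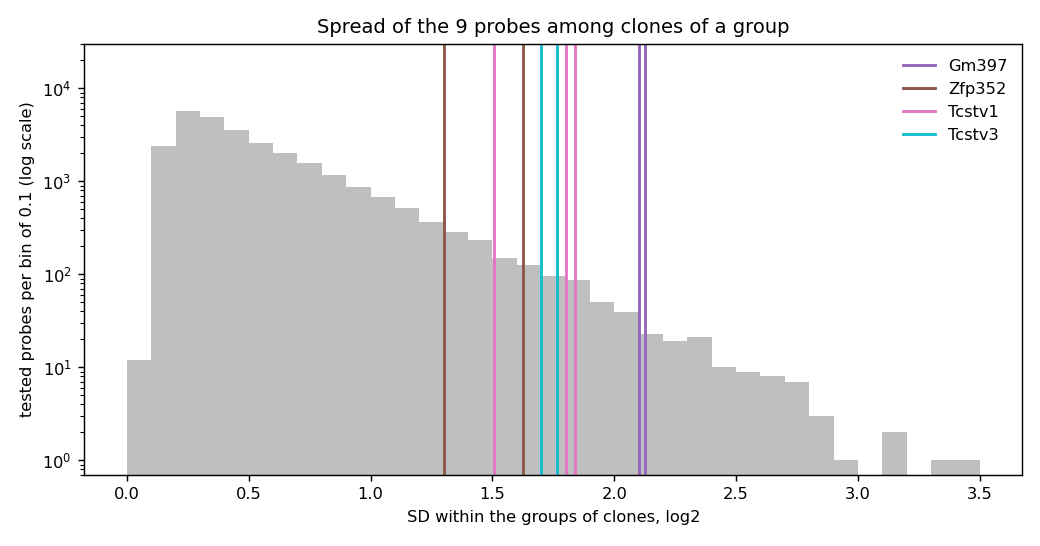
Number of tested probes (log axis, bins of 0.1) by their SD within the groups of clones, with coloured lines at the 9 probes of Gm397, Zfp352, Tcstv1 and Tcstv3. All 9 lines lie in the right tail, from 1.30 for a Zfp352 probe to 2.13 for a Gm397 probe.

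Across clones the 4 genes followed each other closely. Over 30 clones Gm397 and Zfp352 had a Pearson r of 0.952 and a Spearman rho of 0.904 (permutation test, 100000 resamples, p = 1e-05 for both, the smallest that these can give; adjusted p = 1.25e-05 over 20 relations). Without the 2 clones farthest from the Gm397 median r was 0.928 (permutation p = 1e-05, 28 clones), within slides 0.955, and with group means removed 0.936. Within the 10 clones of each source r was 0.823 for PαS, 0.968 for OP and 0.976 for TTF. Among the 26 clones other than the 4 low ones it was 0.884 (rho 0.853, permutation p = 1e-05). With Tcstv3 the r over 30 clones was 0.973 for Gm397 and 0.967 for Zfp352, and among the 26 clones 0.929 and 0.953. Tcstv1 and Tcstv3 had an r of 0.995 with each other, the highest among the 4 genes, and whether their probes tell them apart was not tested.

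The relation with pluripotency genes was looser. Over all 30 clones Gm397 had an r of 0.864 with Nanog, 0.826 with Sox2 and 0.481 with Pou5f1, and Zfp352 of 0.841, 0.792 and 0.385. As the 4 low clones stand apart in Sox2 and Nanog, the relation is given with its tests among the other 26. Gm397 had an r of 0.576 with Nanog (rho 0.539; permutation test, p = 0.00207, adjusted p = 0.00518), 0.490 with Sox2 (rho 0.435; p = 0.0102, adjusted p = 0.0170) and 0.048 with Pou5f1 (rho 0.155; p = 0.817). Zfp352 had 0.549 with Nanog (rho 0.543; permutation test, p = 0.00348, adjusted p = 0.00773), 0.331 with Sox2 (rho 0.337; p = 0.0965) and -0.054 with Pou5f1 (rho 0.030; p = 0.793). Within slides the r with Pou5f1 among these clones was 0.493 for Gm397 and 0.558 for Zfp352. Among the PαS-derived clones the r of Gm397 was 0.564 with Nanog, 0.092 with Sox2 and -0.303 with Pou5f1. That of Zfp352 was 0.295, -0.222 and -0.557. Among all OP- and all TTF-derived clones, low clones included, these r were positive (0.508 to 0.943). Without the 2 clones farthest from the Gm397 median its r was 0.449 with Nanog (permutation p = 0.0274) and 0.371 with Sox2 (permutation p = 0.0753), and within slides 0.555 and 0.624. Without the 2 farthest from the Zfp352 median its r were 0.571 (permutation p = 0.00363) and 0.424 (permutation p = 0.0400), and within slides 0.613 and 0.548.

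Dppa2 and Dppa4 encode chromatin proteins known to act upstream of Zscan4 and its neighbours. Over all 30 clones the r of Gm397 was 0.851 with Dppa2, 0.832 with Dppa4, 0.817 with Tbx3 and 0.824 with Zfp42, and that of Zfp352 0.807, 0.794, 0.753 and 0.725. Among the 26 clones Gm397 had an r of 0.541 with Dppa2 (rho 0.437; permutation p = 0.00442, adjusted p = 0.00804) and 0.483 with Dppa4 (rho 0.426; permutation p = 0.0123, adjusted p = 0.0189), which were 0.379 (p = 0.0681) and 0.341 (p = 0.104) without the 2 farthest clones. Within slides these r were 0.831 and 0.741, and among the PαS-derived clones 0.215 and 0.172. Zfp352 had an r of 0.459 with Dppa2 (rho 0.347; permutation p = 0.0175, adjusted p = 0.0250) and 0.329 with Dppa4 (rho 0.246; permutation p = 0.0994, adjusted p = 0.117), which were 0.582 (permutation p = 0.0029) and 0.453 (permutation p = 0.0263) without the 2 clones farthest in Zfp352. Within slides they were 0.813 and 0.627, and among the PαS-derived clones -0.044 and -0.131. Tbx3, a T-box factor tied to Zscan4 in ES cells, had an r of 0.579 with Gm397 (rho 0.474; permutation p = 0.00199, adjusted p = 0.00518) and 0.437 with Zfp352 (rho 0.517; permutation p = 0.0252, adjusted p = 0.0336). Within slides these r with Tbx3 were 0.723 and 0.898. Among all 10 OP-derived clones they were 0.925 and 0.975 and among all 10 TTF-derived clones 0.948 and 0.918, low clones included, whereas among the 10 PαS-derived clones the sign was opposite (-0.437 and -0.740). Zfp42 (Rex1) had an r of 0.543 with Gm397 (rho 0.411; permutation p = 0.00425, adjusted p = 0.00804) and 0.292 with Zfp352 (rho 0.156; permutation p = 0.149). Within slides these r were 0.709 and 0.565. Among all OP-derived clones they were 0.972 and 0.977 and among all TTF-derived clones 0.812 and 0.707, whereas among the PαS-derived clones the sign was again opposite (-0.146 and -0.594).

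**Figure D4:**
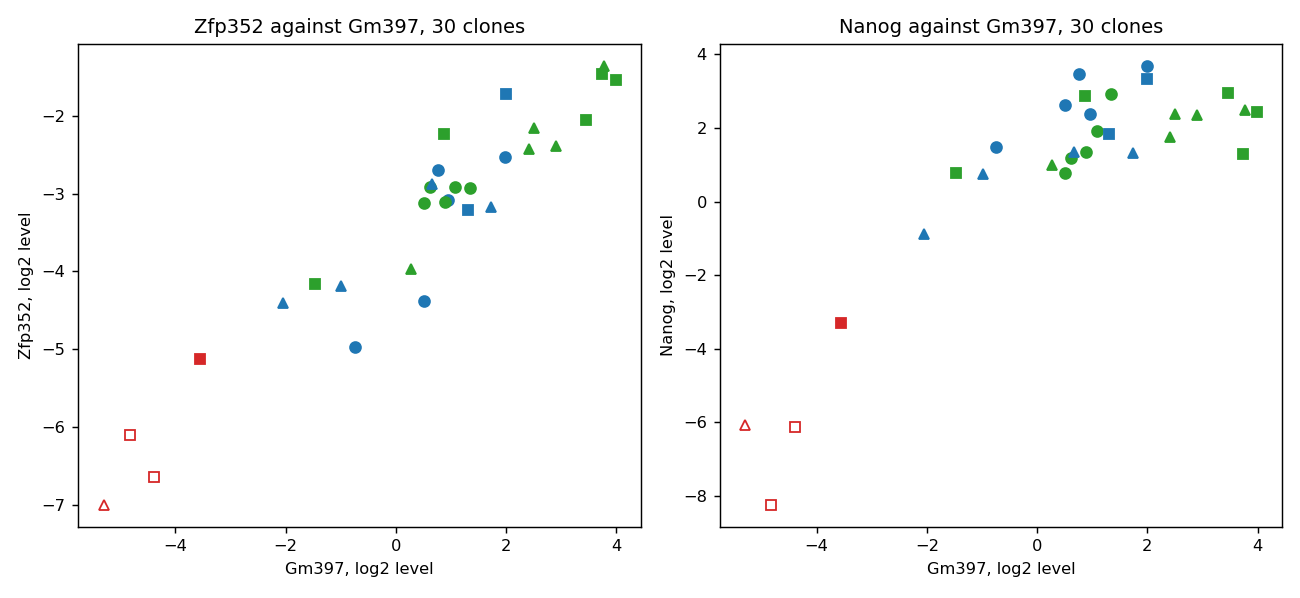
Log2 levels of Zfp352 (left) and Nanog (right) against Gm397 in the 30 clones; circles are PαS-, squares OP- and triangles TTF-derived clones, blue 4F, green 3F, red the 4 clones low in Sox2 and Nanog, and open symbols have a value not well above background. Zfp352 follows Gm397 along the whole range (r = 0.952), whereas the red clones stand apart in Nanog, with a looser relation among the other 26 (r = 0.576).

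Among 18456 genes, those whose levels over the 30 clones were most like Gm397 were A430089I19Rik (Pearson r 0.982), Tcstv3 (0.973), Tcstv1 (0.973), LOC627520 (0.972), BC061212 (0.970), Dub1 (0.968), NAP113099-1 (0.967), Gm428 (0.967), ENSMUST00000098803 (0.966) and RP23-289L21.1 (0.965). RefSeq now names A430089I19Rik and BC061212 Pramel39 and Pramel37, of the Prame-like family, Dub1 Usp17la, a deubiquitinating enzyme gene, and RP23-289L21.1 Gm11487. For Zfp352 the closest were Tcstv3 (0.967), Tcstv1 (0.965), TC1479199 (0.962) and Gm397 (0.952). Of the 10 closest genes of each, 8 stood in both lists. Of the 10 for Gm397, 10 remained among the closest 10 with group means removed, 7 by Spearman rank and 3 without the 4 low clones. These correlations share arrays and normalization and carry no test. By the same measure Nanog ranked 163rd, Sox2 317th and Pou5f1 2856th for Gm397.

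**Figure D5:**
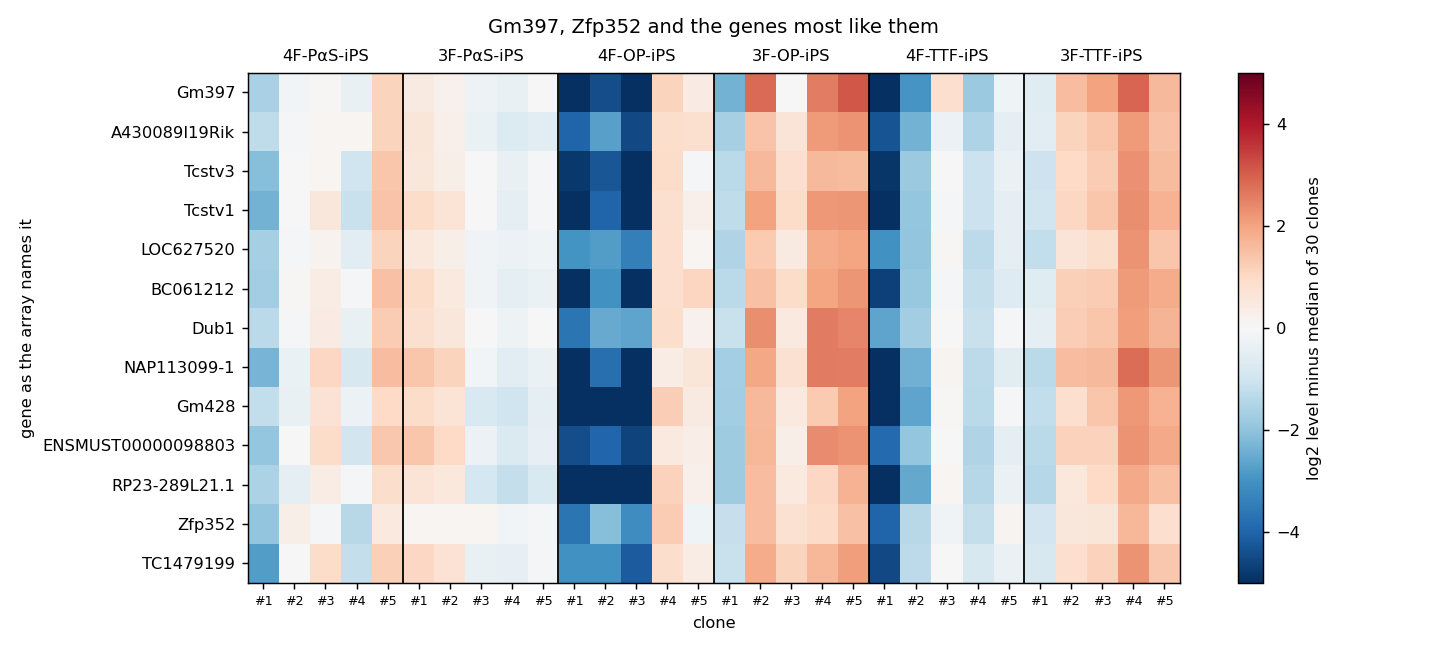
Log2 level minus the median of the 30 clones (colour; blue lower, red higher, ends at ±5) of Gm397, Zfp352 and the genes most like either, ordered by their r with Gm397, in every clone by group. In the Gm397 row 4F-OP-iPS #1 to #3 and 4F-TTF-iPS #1 are lowest, 3F-OP-iPS #2, #4 and #5 and 3F-TTF-iPS #2 to #5 highest.

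Other genes of the pathway were taken from lists. Of 49 names of 2-cell genes, 15 were found on the array and 11 tested, the 4 genes above included. Averaged over sources, 8 of the 11 were called higher in 3F-clones and 0 lower, beside 5.34% of all tested probes, with a median of 1.72. With the slide as a random block 0 of the 11 were called (median 1.75; 1.43% of all tested probes), and 0 without the 4 low clones (median 0.93; 3.48% of all). Besides the 4 genes the 8 were Dub1a, a relative of Dub1 (2.26 ± 0.55, adjusted p = 0.00459), Dub1 (1.81 ± 0.44, adjusted p = 0.00491), Cml2 (1.72 ± 0.47, adjusted p = 0.00992) and LOC435337 (1.11 ± 0.27, adjusted p = 0.00434). Between OP-derived clones 7 of 11 were called (4.51% of all tested probes), between TTF-derived clones 2, Dub1a and LOC435337 (5.77%), and between PαS-derived clones 0 (0.0181%). In OP and in TTF 0 of 11 were called with the slide as a random block, where 0.608% and 0.0253% of all tested probes were. Leaving out the 4 low clones, 0 were called in OP (median 0.68), beside 0.21% of all, and 2 in TTF, beside 4.96%. Against ES cells 2 of 11 were called, beside 36.2% of all tested probes. Both were higher in clones: Chit1, a chitinase (2.43 ± 0.56, adjusted p = 0.000659), and 5830484A20Rik (2.18 ± 0.89, adjusted p = 0.0410). Without the 4 low clones 4 of 11 were called, beside 36.7% of all, Zfp352 and Cml2 being added, and with the slide as a random block only Chit1 was, beside 33.7% of all.

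Of 26 names of regulators of this state, 23 were tested. Over the sources 0 were called between 3F- and 4F-clones, beside 5.34% of all tested probes. Their median was -0.20. Below 2-fold, 8 regulators had an adjusted p under 0.05 and were lower in 3F-clones, and 1, Tbx3, was higher (0.93 ± 0.32, adjusted p = 0.0373), beside 21.2% of all tested probes at that adjusted p. A random block for the slide left 2 of them, Uhrf1 and Dnmt1 (adjusted p = 0.00721 and 0.0152), beside 3.74% of all, and without the 4 low clones 6 were left, all lower, beside 16.2%. Of the 8, the lowest adjusted p were those of Uhrf1 and Dnmt1, which maintain DNA methylation (-0.89 ± 0.12, adjusted p = 3.20e-05, and -0.71 ± 0.11, adjusted p = 8.07e-05). Between OP-derived clones 2 regulators were called higher and 1 lower, beside 4.51% of all tested probes, and 0 without the 4 low clones. Tbx3 and Zfp42 were the higher ones and Uhrf1 the lower, and Tbx3 was the regulator whose 3F-4F difference was called between OP and PαS. A random block for the slide left 0 called higher and 1 lower in OP, and between OP and PαS 0 were called with it (0.662% of all tested probes) or without the 4 low clones (0.0326%). Against ES cells 14 of 23 were called, all lower in clones, with a median of -1.19, beside 36.2% of all tested probes in either direction. Fibroblast markers moved with this comparison, 14 of 18 being called higher in clones (median 4.06), and their part in it was not tested. The largest among the 14 regulators were Zfp42 (-5.34 ± 0.83, adjusted p = 8.11e-06) and Uhrf1 (-2.16 ± 0.25, adjusted p = 9.10e-08), followed by E130014J05Rik, now Tet2, a DNA demethylating enzyme (-1.90 ± 0.44, adjusted p = 0.000674).

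Of 13 genes of telomeres and meiotic recombination, 1 was called between 3F- and 4F-clones over the sources, beside 5.34% of all tested probes. This was Dmc1h, the meiotic recombinase Dmc1, higher by 1.71 ± 0.49 (adjusted p = 0.0144) and by 0.50 ± 0.27 without the 4 low clones (adjusted p = 0.217). None of the 13 was called with the slide as a random block (Dmc1h 1.64, adjusted p = 0.193). Smc1b, a meiotic cohesin, differed by 1.63 ± 0.62 (adjusted p = 0.0598). Tert, the telomerase reverse transcriptase, differed by -0.03 ± 0.18 (adjusted p = 0.913), and the list's median was -0.03. Lower in 3F-clones by less than 2-fold were Rtel1 (-0.84 ± 0.20, adjusted p = 0.00352) and 2810458H16Rik, now Pot1b, of the telomere-capping complex (-0.51 ± 0.10, adjusted p = 0.000896). At an adjusted p under 0.05 and any fold, 1 of the 13 was higher and 2 were lower, beside 21.2% of all tested probes. Against ES cells 3 of the 13 were called, beside 36.2% of all tested probes. Rtel1, a telomere helicase (-1.72 ± 0.39, adjusted p = 0.000637), and BC068171, now Dkc1 of the telomerase complex (-1.43 ± 0.39, adjusted p = 0.00324), were lower in clones, and Spo11, which starts meiotic recombination, was higher (1.05 ± 0.23, adjusted p = 0.000368).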

How the data were processed

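The deposited scanner files hold intensities that Agilent Feature Extraction had background-subtracted, with no normalization between arrays, and the authors deposited a table of log2 values made in GeneSpring GX. Control spots and outlier-flagged spots (54 to 152 an array) did not enter, and spots of 1 probe were averaged. Each value is the log2 processed intensity, with the array's own 75th percentile subtracted. The correlation with the authors' table was at least 0.99997 on each array over 18968 probes, and each probe of that table has a median of 0. Its columns' medians ran from -0.63 to 0.25. The number of arrays limits the precision.

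Differences were tested with limma 3.58.1 (R 4.3.3) in 1 fit of 7 groups (6 of clones, 1 of ES cells) over 27623 probes well above background on all arrays of at least 1 group, with Benjamini-Hochberg adjustment over all of them. Relations and spread were tested by permutation (100000 resamples, two-sided) with scipy 1.17.1 (Python 3.11.15). The tests across probes were tested on simulated data. The members and gene lists were chosen with earlier results of these data known. Named were the members, the 10 genes most like Gm397 or Zfp352, called genes of the lists and Sox2, Nanog and Pou5f1. Smc1b, Tert, Dnmt1 and other uncalled genes were named after their values were seen. List names were matched by symbol or RefSeq accession. Alternatives were normexp (offset 50), quantile normalization, the authors' table, no filter, a floor, blocks for slide or for clone number, other probes and each array left out. Leaving out the 4 clones at least 32-fold below ES cells in Sox2 and Nanog was added after the data were seen, as were the random block and this setting for the gene lists.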

Additional observations from a re-analysis of the deposited data

Results flagged for a closer look

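In 3F-OP-iPS clones, #1 stood apart from the other 4 in Zfp352 (-4.16) and in Tcstv3 (-0.63), with a gap to the nearest clone of 0.712 and 0.736 of the group's range, over the limit of 0.71 for 5 samples. These were 2 of 24 combinations of gene and group examined, and chance flags about 1 in 20. In Gm397 and Tcstv1 the same clone was also the lowest of its group (-1.47 and -0.06).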

How the results depend on the processing

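Differences are on the log2 scale, with adjusted p from limma. Over the 3 sources, the 3F-4F difference of each of the 4 genes passed the threshold whichever of 32 arrays was left out (Gm397 2.25 to 2.91, Zfp352 1.33 to 1.79). It missed the threshold with the slide as a random block (2.39 for Gm397, 1.44 for Zfp352), without the 3 clones lacking Sox2 and Nanog (1.64 and 0.93) and without the 4 clones low in them (1.06 and 0.63), and for Zfp352 also with normexp (0.55) and with the other probe (1.30). In OP-derived clones the Gm397 call was lost with normexp (3.11), quantile normalization (3.83), no filter (4.01, adjusted p = 0.0632), the random block (4.57), the other probe (3.88), without the 3 clones (2.20) and without the 4 (0.46). It held in 11 of the 32 fits that left out 1 array (3.27 to 4.98, adjusted p = 0.00925 to 0.151). The range was 1.75 to 2.98 for Zfp352 in OP, -0.16 to 0.52 for Gm397 in PαS, -0.035 to 0.85 for Tcstv3 in PαS, and 2.53 to 4.29 for Gm397 in TTF. With the slide as a fixed block the TTF difference turned to -1.72 for Gm397, -1.76 for Zfp352, -1.15 for Tcstv1 and -1.43 for Tcstv3. It then rested on 3F-TTF-iPS #1 against 4F-TTF-iPS #5. With normexp the Zfp352 difference in PαS turned to -0.13. The causes were not tested.

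Clone numbers are names and give no pairing. Of 75 pairs of same-numbered clones, 16 had a correlation over 0.1. Their median correlation was -0.0004, against 0.0082 in other pairs, and 6 clones had their best match in a clone of the same number. With the clone number as a block, differences in TTF-derived clones passed the threshold (3.56 for Gm397, adjusted p = 0.0299, and 1.87 for Zfp352, adjusted p = 0.0475), as did Zfp352 in OP-derived clones (2.27, adjusted p = 0.0216), and the Zfp352 spread was 0.33 (permutation p = 0.175).

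Comparisons of sources passed no test and changed sign. Without the 3 clones and without the 4, PαS minus OP was -0.22 and -1.09 for Gm397 and -0.44 and -0.89 for Zfp352, and PαS minus TTF was -0.31 in both cases for Gm397 and -0.20 for Zfp352. PαS minus TTF was also -0.12 for Gm397 with normexp and -0.027 for Zfp352 with a floor. OP minus TTF was 0.78 without the 4 clones for Gm397, and for Zfp352 0.24 without the 3, 0.69 without the 4, 0.020 with normexp and 0.12 with quantile normalization. With 1 array left out, PαS minus TTF ran from -0.31 to 0.56 for Gm397 and from -0.20 to 0.31 for Zfp352, and for Zfp352 PαS minus OP from -0.10 to 0.52 and OP minus TTF from -0.39 to 0.23. Without the 4 clones, clones minus ES was 0.15 for Gm397 and 1.52 for Zfp352, the latter called, and with 1 array left out -1.69 to 0.46 for Gm397. The 3F-4F difference in TTF minus that in OP was 0.33 without the 3 clones and 2.07 without the 4 for Gm397, and 0.14 and 1.03 for Zfp352, and ran from -1.48 to 0.28 and from -1.11 to 0.12 with 1 array left out. That in OP minus that in PαS was -0.37 for Zfp352 without the 4.

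The larger spread of Zfp352 in 4F-clones missed the threshold with normexp (0.19), quantile normalization (0.57), a floor (0.56), slides centred (0.54), the other probe (0.48), without the 3 clones (0.39) and without the 4 (0.30). With 1 clone left out it ran from 0.55 to 0.83. That of Gm397 was -0.060 without the 4. The r of Gm397 and Zfp352 passed in all 17 alternatives (0.823 to 0.976).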
